A study of Mus musculus with 4 samples.

Results

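Of the 18193 mouse genes that the array measured under a single name, 10 were examined here: 9 carriers that reclaim phosphate, sugars and amino acids in the proximal tubule of the kidney or take up the same nutrients elsewhere, and Pdzk1, a scaffold that holds some of these carriers at the membrane. They were chosen by name, with earlier results of these data known. Every probe set that the platform table assigns to one of them alone was taken. That gave 14 probe sets, 2 for each of 4 genes and 1 for each of 6. RNA came from whole mouse kidneys excised at stage E14.5 (Theiler stage 22), with 2 arrays of wild-type kidneys and 2 of Wnt4 null mutant kidneys carrying the Wnt4tm1Amc allele. Each wild-type array held a pool of 2 kidneys of stated strain CD-1, and each mutant array a pool of 12 kidneys of stated strain 129. The protocol shared by all samples speaks of CD-1 matings. Genotype, stated strain and pool size changed together and cannot be told apart. All RNA went through 1 round of amplification. The study treats each pool as a biological replicate. Whether litters were shared is not stated, and p-values cover only the spread between these pools.

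The proximal tubule is the first stretch of the nephron after the glomerulus, and its cells take back most of the filtered phosphate, glucose and amino acids. Carriers in the apical brush border bring these solutes in from the urine, with sodium driving many of them, and carriers in the basolateral membrane pass them on to the blood. Wnt4 is a secreted signal needed to turn kidney mesenchyme into the renal vesicle, from which the nephron tubule forms, and the study compared the genotypes in search of genes that the vesicle and its derivatives express. In whole kidneys, fewer cells of a type and less RNA per cell cannot be told apart.

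The 4 arrays had a common trimmed mean signal of 500 and median signals from 137.5 to 159.3. Wnt4 itself read 1884.9 and 1769.9 in wild-type and 406.4 and 271.8 in mutant kidneys at its brighter probe set (1450782_at), 5.28-fold lower (limma adjusted p = 0.000196). Below, a gene is said to have risen or fallen, or to be called, where the limma adjusted p was under 0.05 over all 27022 probe sets tested. Differences are mutant minus wild-type on the log2(signal + 16) scale, and folds are taken from them. For a gene with several tested probe sets, the one with the highest mean stands for it. With 2 arrays in each group, the smallest two-sided p of an exact permutation test is 0.333.

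RefSeq gave windows of 300 bases (250 before and 50 after a start site, build GRCm38.p6) for 8 of the 10 genes, and Slc5a2 and Slc1a5 had none in the table. Both strands were searched for GTTAAT, the core of sites bound by HNF1 factors, for CAAAGTCCA, a site of HNF4 factors, for AAAGTCCA, which lies inside it, and for TATAAA, the TATA box. HNF1 and HNF4 are transcription factors of tubule, liver and gut. Printed are a window of each of the 4 genes with an HNF match, Slc34a1, Pdzk1, Slc3a1 and Slc7a7, and that of Slc2a2, whose difference was among the lowest and whose window held none of the 4 motifs. Capitals mark the matches. Slc7a7 lies on the minus strand and the others on the plus strand. The windows are chr13:55399398-55399697 for Slc34a1, chr3:96829815-96830114 for the first of 2 for Pdzk1, chr17:85028097-85028396 for Slc3a1, chr14:54409423-54409722 for the window of Slc7a7 with the match and chr3:28697653-28697952 for Slc2a2.
Slc34a1: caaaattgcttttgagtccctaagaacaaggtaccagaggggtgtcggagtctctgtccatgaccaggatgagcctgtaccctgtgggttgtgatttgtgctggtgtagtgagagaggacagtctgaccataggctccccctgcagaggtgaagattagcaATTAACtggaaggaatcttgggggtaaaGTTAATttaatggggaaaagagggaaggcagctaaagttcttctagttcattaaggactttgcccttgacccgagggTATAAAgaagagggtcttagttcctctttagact
Pdzk1: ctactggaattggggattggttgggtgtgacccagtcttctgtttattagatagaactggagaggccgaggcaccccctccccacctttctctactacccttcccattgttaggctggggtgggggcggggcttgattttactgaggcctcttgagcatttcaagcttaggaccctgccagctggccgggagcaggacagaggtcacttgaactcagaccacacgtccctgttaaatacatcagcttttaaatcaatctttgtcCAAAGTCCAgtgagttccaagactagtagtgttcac
Slc3a1: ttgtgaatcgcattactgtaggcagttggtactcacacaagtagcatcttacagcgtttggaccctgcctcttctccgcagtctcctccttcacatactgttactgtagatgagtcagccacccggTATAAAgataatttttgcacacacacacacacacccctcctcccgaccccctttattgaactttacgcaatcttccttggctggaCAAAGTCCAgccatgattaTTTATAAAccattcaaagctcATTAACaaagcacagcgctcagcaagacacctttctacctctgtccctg
Slc7a7: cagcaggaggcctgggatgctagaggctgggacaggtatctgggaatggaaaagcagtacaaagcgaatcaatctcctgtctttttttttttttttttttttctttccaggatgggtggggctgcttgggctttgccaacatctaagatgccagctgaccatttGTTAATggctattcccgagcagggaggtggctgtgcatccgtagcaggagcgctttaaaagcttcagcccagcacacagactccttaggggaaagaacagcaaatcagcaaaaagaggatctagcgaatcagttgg
Slc2a2: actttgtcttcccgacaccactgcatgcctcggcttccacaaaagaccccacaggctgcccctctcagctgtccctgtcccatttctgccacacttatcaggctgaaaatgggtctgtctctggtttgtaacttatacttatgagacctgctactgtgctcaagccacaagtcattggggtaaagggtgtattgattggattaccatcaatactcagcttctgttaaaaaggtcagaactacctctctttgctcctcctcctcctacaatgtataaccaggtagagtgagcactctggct

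In the Slc34a1 window GTTAAT began 61 bases before the start site and its reverse complement 89 bases before it. The Pdzk1 window held CAAAGTCCA from 14 bases after the start site, and that of Slc3a1 held it from 39 bases before. Slc3a1 also had the reverse complement of GTTAAT 1 base after the start site, and so 2 kinds of HNF match. Slc7a7 had GTTAAT in 1 of its 5 windows, from 86 bases before the start site. Counted by gene, GTTAAT was present for 3 of 8 members, against 8.24% of the 27025 genes in the table. CAAAGTCCA was present for 2 of 8, against 0.555% of those genes, and the shorter AAAGTCCA for the same 2, against 1.46%. TATAAA was found for Slc34a1 and Slc3a1, 2 of 8, against 15.7%. In the Slc34a1 window it began 16 bases after the start site, not before it. In that of Slc3a1 it began 124 and 18 bases before, and its reverse complement 20 bases before. Per window, the shares over all 32851 windows were 7.1%, 0.475%, 1.25% and 13.6% in the same order. The 8 members had 14 windows in all, and a gene with more windows has more room for a match. A match describes these letters only, and binding was not measured here.

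Of the 10 genes, 7 fell in the mutant (Slc34a1, Pdzk1, Slc2a2, Slc5a1, Slc3a1, Slc7a9 and Slc1a5), Slc7a7 rose, and Slc5a2 and Slc7a8 were not called. Over all 13432 genes tested, 5.82% fell and 6.7% rose. Since the members were chosen with earlier results of these data known, setting them beside all genes is a description and no test. The median log2 difference was -1.76 over the 10 genes and 0.0003 over all genes tested, and the members ran from -4.51 to 0.73. Of the 14 probe sets, 12 passed the filter on low signals. Among these 12, 8 fell and 1 rose, where 5.39% and 5.41% of all tested probe sets did so. In 8 of the 12 both mutant signals lay below both wild-type signals, and in 3 both lay above. Over all tested probe sets these shares were 28.0% and 26.1%. For Slc34a1, Slc2a2, Slc3a1 and Slc7a9 the mutant mean lay under 94.2, the lowest mean level kept, so these 4 passed the filter through their wild-type signal. Fitted with no filter, 5 of the 10 genes fell.

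**Figure D1:**
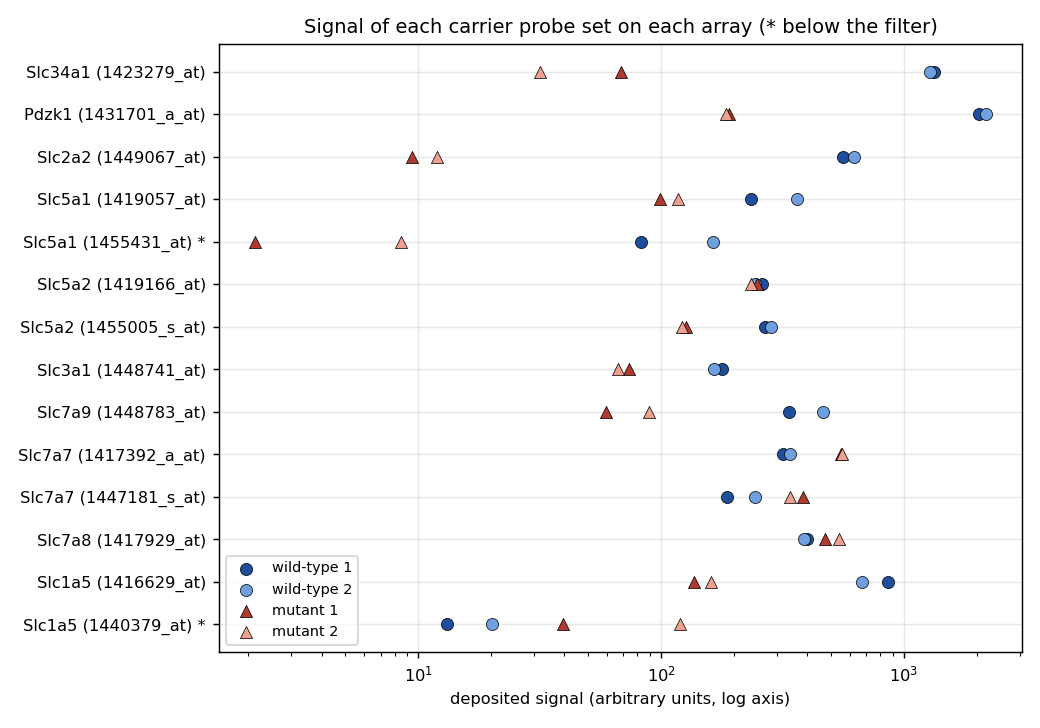
Deposited signal (log axis, arbitrary units) of each of the 14 probe sets on the 2 wild-type arrays (circles) and the 2 mutant arrays (triangles). Mutant triangles lie left of the wild-type circles for Slc34a1, Pdzk1, Slc2a2, both probe sets of Slc5a1, 1455005_s_at of Slc5a2, Slc3a1, Slc7a9 and the brighter one of Slc1a5, and right of them for both probe sets of Slc7a7, for Slc7a8 and for the dimmer one of Slc1a5. An asterisk marks the 2 probe sets below the filter.

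Among phosphate genes, Slc34a1 encodes the apical sodium-phosphate cotransporter that recovers most filtered phosphate. Its signal (1423279_at) was 1336.2 and 1281.6 in wild-type kidneys and 68.5 and 31.8 in mutant kidneys. Both mutant pools were far below both wild-type pools, and the mutant mean was 3.83% of the wild-type mean. The log2 difference was -4.38 ± 0.27 (SE, limma, n = 2 per group), or 20.9-fold lower (adjusted p = 8.46e-05). The fold depends on the constant added before the log, being 27.4-fold with 1 and 12.2-fold with 64.

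Pdzk1 encodes a protein with several PDZ domains that binds the tails of brush border carriers, Slc34a1 among them. On the wild-type arrays its signal (1431701_a_at) was 2041.8 and 2178, and on the mutant arrays 190.6 and 185.6. The pools of a genotype lay close together, and 8.92% of the wild-type mean was left in the mutant. The difference of -3.38 ± 0.13 (10.4-fold lower) had the smallest p among the members (adjusted p = 1.64e-05). It ranged only from -3.43 to -3.33 when any 1 array was left out.

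The other phosphate genes on the list were the remaining phosphate carriers, scaffolds and receptors that act on phosphate uptake. The shares of all genes tested that fell and rose were 5.82% and 6.7%. Of 9 tested here, 4 fell and 0 rose, with a median log2 difference of -0.25. They were Pdzk1ip1, a membrane protein that binds Pdzk1 (2.60-fold lower, adjusted p = 0.000442), the parathyroid hormone receptor gene Pth1r (1.91-fold, adjusted p = 0.00287), and the scaffold genes Slc9a3r1 (1.46-fold, adjusted p = 0.00934) and Slc9a3r2 (1.46-fold, adjusted p = 0.0185). Pdzk1ip1 went from 2013.3 and 1708.8 to 746.9 and 663.1. The other carriers of phosphate were not called: log2 differences were -0.25 for Slc34a2, -0.11 for Slc34a3, -0.07 for Slc20a1 and -0.03 for Slc20a2. The count of 4 became 2 without mutant replicate 2 and 1 without the intensity trend. Kl, the gene of the co-receptor Klotho, was below the filter, with signals of 148.4 and 129.5 against 55.5 and 53.

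Among sugar carriers, Slc2a2 encodes GLUT2, which lets glucose leave the tubule cell on the basolateral side. At 1449067_at the wild-type signals were 561.8 and 624.1 and the mutant signals 9.44 and 11.9. Little signal was left in either mutant pool, 1.80% of the wild-type mean, and both values lay far below the array medians. The difference was -4.51 ± 0.29 (22.8-fold lower, adjusted p = 9.75e-05). Whether the mutant signals stand above background was not tested, and the fold was 51.0 with a constant of 1 and 8.79 with 64. The order of Slc2a2 and Slc34a1 is not fixed: Slc34a1 had the lower difference with a constant of 64 (-3.61 against -3.14) and without mutant replicate 1 (-4.79 against -4.44). Hepatocytes express Slc2a2 too, and the summed signal of 7 liver markers was 1461 and 1968 in wild-type and 367 and 1077 in mutant kidneys. That sum rests on Afp: the other 6 summed to 334 and 406 against 297 and 557, groups that overlapped. Of the 2 liver genes tested, Afp fell (1127.3 and 1562.3 to 69.7 and 520.1, adjusted p = 0.0438) and Apoa2 was not called. Alb read 110.8 and 65.9 against 55.9 and 166.5, and the part of liver RNA in the Slc2a2 result was not tested.

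Slc5a1 encodes SGLT1, the high-affinity sodium-glucose cotransporter of the late proximal tubule and of the gut. Its brighter probe set (1419057_at) read 233.8 and 363.5 in wild-type and 99.2 and 117.3 in mutant kidneys. The wild-type pools differed from each other by more than the mutant pools did, yet the groups did not overlap. The difference was -1.31 ± 0.28 (2.48-fold lower, adjusted p = 0.0217). This call was lost without wild-type replicate 2 (adjusted p = 0.0875) and without mutant replicate 1 (0.0595), without the intensity trend (0.0723) and with no filter (0.0649). The dimmer probe set (1455431_at), below the filter, read 82.6 and 163.9 against 2.13 and 8.53, and it was called when no filter was used (adjusted p = 0.0225). The summed signal of 6 gut markers was 729 and 756 in wild-type and 308 and 399 in mutant kidneys. That sum rests on Vil1: the other 5 summed to 392 and 365 against 304 and 393, groups that overlapped. Vil1, which the tubule brush border also uses, went from 337.8 and 390.7 to 4.42 and 5.78. Cdx2, the only one of the 6 tested, was not called (172.1 and 117.3 against 106.3 and 150), and the part of these genes in the Slc5a1 result was not tested.

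For Slc5a2, the gene of SGLT2, the low-affinity cotransporter that recovers most glucose in the early proximal tubule, the 2 probe sets disagreed. At 1419166_at, the one with the higher mean, the signals were 261.5 and 245 in wild-type and 247.7 and 234.7 in mutant kidneys. The groups overlapped, and the difference was -0.07 with a 95% interval from -0.52 to 0.38 (adjusted p = 0.878). At 1455005_s_at the signals were 268.4 and 284.1 against 126.3 and 122.5, with no overlap. There the difference was -1.06 ± 0.22 (2.08-fold lower, adjusted p = 0.0221), which missed the threshold without wild-type replicate 2 (0.0619), without either mutant array (0.0601 and 0.0638), and with no filter (0.0630). The suffix _s_at marks probe sets whose probes match more than one transcript, so which of the 2 reads Slc5a2 better cannot be told from these data.

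Most other sugar carriers were not called. Of 11 tested, 0 fell and 1 rose, with a median log2 difference of 0.01. Over all genes tested, 5.82% fell and 6.7% rose, so counts of this size are near those shares. The one that rose was Slc2a13, a proton-coupled carrier of myo-inositol, from 309.4 and 308 to 485.5 and 560.5 (1.66-fold, adjusted p = 0.0257). That call was lost without mutant replicate 1, without mutant replicate 2 and without the intensity trend, and 2 of the list were called without wild-type replicate 1. Slc2a1, the widely expressed carrier GLUT1, read 2181.1 and 1936.2 against 2103 and 2041.4, groups that overlapped. Slc5a10 and Slc2a9, carriers that the proximal tubule also uses, were not called, with differences of 0.01 and -0.52. Neither were Slc2a8 and Slc2a3, with differences of -0.40 and 0.45.

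Amino acid carriers of the apical membrane were next. Slc7a9 encodes the light chain of the cystine and dibasic amino acid exchanger, and Slc3a1 the heavy chain that brings it to the brush border. Loss of either causes cystinuria. Slc7a9 (1448783_at) went from 338.1 and 464.3 to 59.4 and 88.9, so 18.5% of the wild-type mean was left. Its difference was -2.21 ± 0.28 (4.64-fold lower, adjusted p = 0.00240). It fell under each alternative in which it was tested, with log2 differences from -2.45 to -1.75. For Slc3a1 (1448741_at) the signals were 177.9 and 165.2 against 73.8 and 66.8. All 4 were modest and the groups were separate, with 41.0% left. The difference was -1.12 ± 0.29 (2.17-fold lower), and at an adjusted p of 0.0463 it was the weakest call among the members. It was lost without any 1 of the 4 arrays (adjusted p = 0.102 to 0.163) and with no filter (0.121).

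Next were basolateral exchangers. Slc7a7 and Slc7a8 encode light chains, y+LAT1 for dibasic and LAT2 for neutral amino acids, that pair with the heavy chain encoded by Slc3a2. Slc7a7 (1417392_a_at) read 317.9 and 340.7 in wild-type and 552.1 and 558.1 in mutant kidneys. Both mutant pools were higher, and the difference of 0.73 ± 0.15 (1.66-fold, adjusted p = 0.0198) was the only rise among the members. The call was lost without mutant replicate 1 (adjusted p = 0.0961), without mutant replicate 2 (0.0991) and without the intensity trend (0.0586). Its second probe set (1447181_s_at) read 187.6 and 243.6 against 383.5 and 340.7, a difference of nearly the same size, 0.72, that was not called (adjusted p = 0.0642). The limit given above for the suffix _s_at holds for that probe set too. Slc7a8 (1417929_at) read 401.1 and 389 against 471.9 and 539.5, and its difference of 0.34 was not called (95% interval from -0.01 to 0.69, adjusted p = 0.207). Slc3a2 read 2393.8 and 2514.7 against 2568.9 and 2526.2, a difference of 0.05 (adjusted p = 0.758).

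Slc7a7 is also used by macrophages, and 8 macrophage markers were added after its value was seen. Of the 7 tested 0 were called by limma, and the summed signal was 3588 and 3275 in wild-type and 3363 and 3676 in mutant kidneys, groups that overlapped. Stromal markers rose with Slc7a7: all 6 were higher, and their summed signal went from 9859 and 10340 to 28436 and 28324. Skeletal muscle markers did too (5 of 7 rose, summed signal 1801 and 1166 against 7216 and 6813), as did 3 of 5 erythroid markers. The share over all genes tested that rose was 6.7%. Wild-type means of Myog, Myl1 and Hbb-bh1 lay under 94.2, the lowest mean level kept, so these passed the filter through their mutant signal. The part of any of these cell types, macrophages among them, in the Slc7a7 result was not tested.

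Slc1a5 encodes ASCT2, a sodium-dependent exchanger of neutral amino acids such as glutamine that many dividing cells use. Its brighter probe set (1416629_at) read 861.2 and 671.8 in wild-type and 136.8 and 160.6 in mutant kidneys. Both mutant signals were well below both wild-type signals, and 19.4% of the wild-type mean was left. The difference of -2.24 ± 0.19 (4.73-fold lower, adjusted p = 0.000364) was close in size to that of Slc7a9. The second probe set (1440379_at) went the other way at low signals below the filter, 13.2 and 20.1 against 39.6 and 120.1. When the 2 were averaged, the gene's difference was -0.41 and was not called (adjusted p = 0.442), so the fall of Slc1a5 rests on its brighter probe set.

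**Figure D2:**
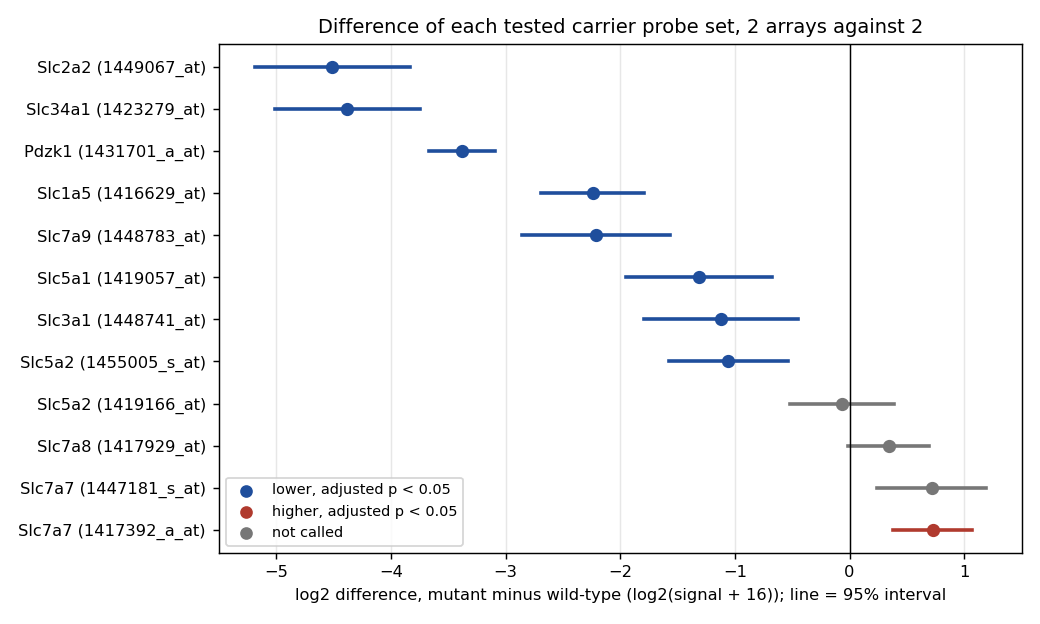
Log2 difference between mutant and wild-type kidneys (points) with its 95% interval (lines) for the 12 tested probe sets, coloured by call. The 8 that fell run from -4.51 for Slc2a2 to -1.06 for the second probe set of Slc5a2, and the only one called higher is the brighter probe set of Slc7a7 at 0.73.

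Of 24 further amino acid carriers and partners tested, 2 fell and 1 rose, with a median log2 difference of -0.12. These counts are near the 5.82% and 6.7% of all genes tested that fell and rose. Cltrn, whose product collectrin brings apical carriers of neutral amino acids to the membrane, went from 759.1 and 1140.2 to 88.4 and 113.4 (8.15-fold lower, adjusted p = 0.000241). Slc7a13, a light chain that pairs with the Slc3a1 product in the late proximal tubule, went from 235.3 and 218.8 to 61.2 and 29.3 (4.11-fold lower, adjusted p = 0.00981). Its mutant mean lay under 94.2, the lowest mean level kept, so it passed the filter through its wild-type signal. Slc38a4, a sodium-coupled carrier of neutral amino acids, rose 1.32-fold (adjusted p = 0.0447), a call lost without mutant replicate 1, without mutant replicate 2, after either further normalization, with no filter and without the intensity trend. The count of genes that fell was 4 without wild-type replicate 2 and 1 with the lowest 60% of probe sets left out. Slc7a6, another light chain that pairs with Slc3a2, was not called (difference -0.37, adjusted p = 0.0773). Slc6a19, the main apical carrier of neutral amino acids, was not called either, with 190.9 and 160.9 against 136.4 and 169.9. Its relative Slc6a18 was below the filter, with 242.9 and 226.7 against 66.3 and 7.66.

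Beside the carriers, proximal tubule identity was checked with 24 other markers, of which 17 were tested. Of these 9 fell and 1 rose, with a median log2 difference of -1.26. The shares over all genes tested were 5.82% and 6.7%. Among those that fell, Lrp2, Cubn, Hnf4a, Slc22a6 and Keg1 had mutant means under 94.2, the lowest mean level kept. They passed the filter through their wild-type signal. The lists were chosen with earlier results of these data known, so the counts are a description and no test. Some markers of other nephron cells fell too. Of 8 for the loop and distal tubule, 4 passed the filter, with a median of -2.73. Of these, 3 fell (Slc12a1, Cldn10 and Irx1), and Umod was not called. Slc12a1, the salt carrier of the loop, was 14.7-fold lower (adjusted p = 5.83e-05). Irx1 had a mutant mean under 94.2. Below the filter, Cldn16 and Kcnj1 had lower signals in both mutant pools. Slc12a3 and Pvalb, also below it, had groups that overlapped, so a fall of the whole list was not shown. Of 5 podocyte markers, 4 fell (median -1.53). Podxl, the gene of podocalyxin, was 3.96-fold lower (adjusted p = 5.52e-05). Keg1 fell from 1451.4 and 1549.5 to 79 and 79.5 (15.9-fold, adjusted p = 1.76e-05). The endocytic receptor gene Lrp2 (megalin) was 6.18-fold lower, Amn, the partner of cubilin, 6.56-fold and the folate receptor gene Folr1 4.21-fold (adjusted p from 0.000187 to 0.000354). Mme, the gene of the brush border peptidase neprilysin, was the exception that rose, from 1047.1 and 1188.8 to 2369.5 and 2299.5 (2.08-fold, adjusted p = 0.000626), named here after its value was seen. Aqp1, the water channel of the proximal tubule, and Slc4a4, its basolateral bicarbonate carrier, were not called, with differences of -0.39 and -0.42.

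**Figure D3:**
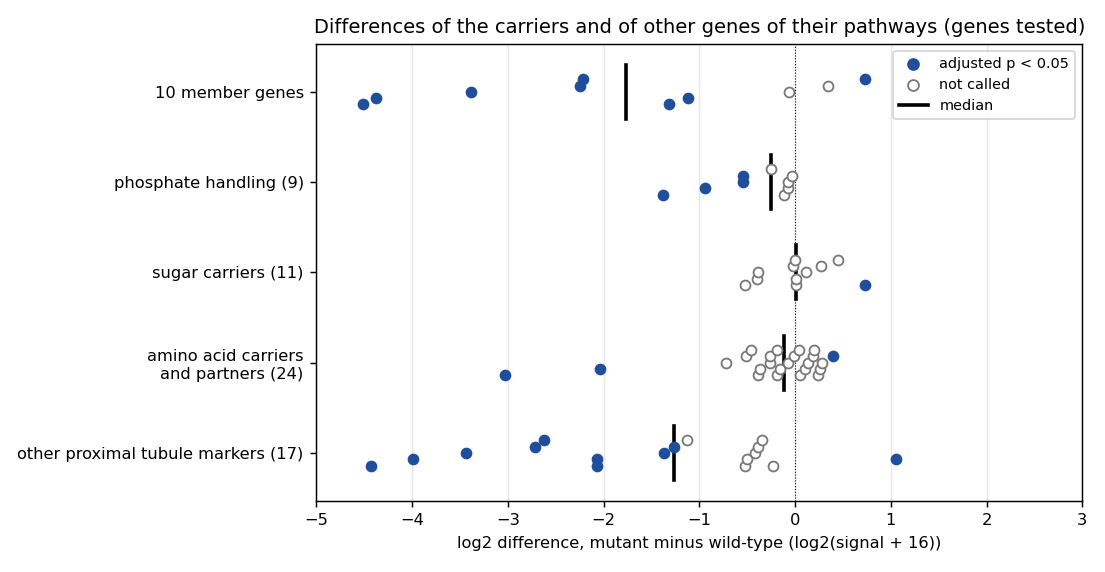
Log2 difference between mutant and wild-type kidneys for each tested gene (points, filled where the adjusted p is under 0.05) of the 10 members and of 4 lists of related genes, with the number tested in brackets and the median as a bar. The medians are -1.76 for the members, -0.25 for phosphate handling, 0.01 for sugar carriers, -0.12 for amino acid carriers and -1.26 for other proximal tubule markers.

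To see whether members changed by different amounts, the log2 ratio of 7 pairs was taken on each array, which cancels any scaling of that array. Only the shift of such a ratio between genotypes is read, since signals of different probe sets are not on a common scale. In all 7 pairs the mutant ratios did not overlap the wild-type ratios, and each had an exact permutation p of 0.333, two-sided, the smallest this design allows (0.333 after Benjamini-Hochberg adjustment over the 7). No values could have given a smaller p here, so it does not tell large shifts from small ones. Several pairs share a gene, and the share of other gene pairs without overlap was not taken. The count of 7 is therefore a description only. The ratio of Slc2a2 to Slc5a2 moved furthest, by -4.45, from 1.06 and 1.29 on the wild-type arrays to -3.37 and -3.17 on the mutant arrays. Both pairs with Slc5a2 use its probe set that was not called. With the other one, a choice made after the values were seen, this shift was -3.46. With the probe set that was not called, it was -5.60 with a constant of 1 and -3.08 with 64. Slc34a1 against its scaffold Pdzk1 was 2.0-fold lower in the mutant, but the mutant arrays read -1.29 and -2.08. Without mutant replicate 2 the log2 shift was -0.61. With all arrays, that shift was -1.30 with a constant of 1 and -0.50 with 64. Slc7a9 against its heavy chain Slc3a1 shifted by -1.09, from 0.87 and 1.41 to -0.25 and 0.34. The apical light chain Slc7a9 against the basolateral Slc7a8 shifted by -2.55. Slc7a7 against Slc7a8, both basolateral, shifted by 0.39. For Slc5a2 against Slc5a1 the shift was 1.25, but 0.26 with overlapping groups when the other probe set of Slc5a2 was used. For Slc34a1 against Slc1a5 it was -2.14.

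**Figure D4:**
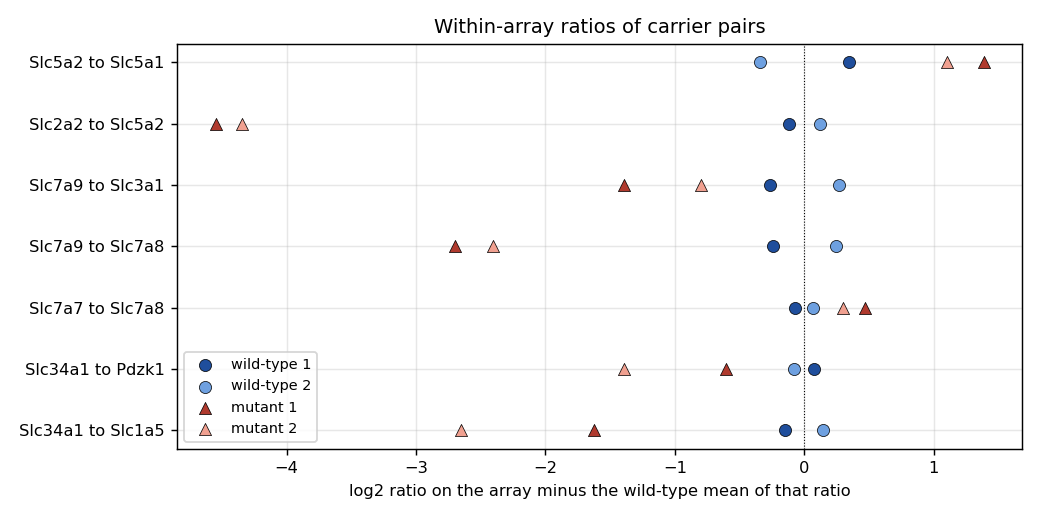
Log2 ratio of 2 members on each array, minus the wild-type mean of that ratio, for 7 pairs (circles wild-type, triangles mutant). Mutant triangles lie apart from the circles in every pair, from a shift of 0.39 for Slc7a7 to Slc7a8 to one of -4.45 for Slc2a2 to Slc5a2.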

How the data were processed

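Affymetrix Mouse430_2 arrays were hybridised with RNA from pooled whole kidneys. The values are the authors' deposited signal intensities on a linear scale, with a single value for each probe set on an array. The submitters' processing notes name GCOS. Its version, how probes were summarised and the target of scaling are not stated in what was used here. Signals were transformed to log2(signal + 16) with no further normalization. The 64 control probe sets and the lowest 40% by mean were left out, leaving 27022 of 45101. Mutant and wild-type arrays were compared with limma 3.58.1 in R 4.3.3 (lmFit, eBayes with an intensity trend), two-sided, with Benjamini-Hochberg adjustment at 0.05, and had 6.16 prior degrees of freedom. The fit was also run on simulated data with fewer and smaller changes than were found here, which is no check of these calls. The number of arrays limits the precision, and detection calls were not used.

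Of the probe sets, 34945 named 1 gene (18193 genes), 932 several, and the rest are unnamed here; no symbol changed on matching to a RefSeq table of GRCm38.p6. Members and lists were chosen with earlier results of these data known. Genes named were all members, up to 4 genes with the smallest p of each pathway list, and marker genes that a result turns on. Others were picked with their values known: Slc34a2, Slc34a3, Slc20a1, Slc20a2, Kl, Slc2a1, Slc5a10, Slc3a2, Slc6a19 and Slc6a18. The same holds for Slc12a1, Cldn10, Irx1, Umod, Cldn16, Kcnj1, Slc12a3, Pvalb, Podxl, Cubn, Hnf4a, Slc22a6, Mme, Aqp1, Slc4a4, Myog, Myl1 and Hbb-bh1. Alternatives covered other normalizations, pseudocounts, filters and variance models, leaving out probe set types or single arrays, the replicate number as a block, and the mean over a gene's probe sets. Probe positions were not analysed here.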

Additional observations from a re-analysis of the deposited data

How the results depend on the processing

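Slc34a1, Pdzk1, Slc2a2 and Slc7a9 were called lower under every alternative in which they were tested, and no member that was called changed its direction under any alternative. The number of member genes that fell, 7 of 10, was 5 to 6 when 1 array was left out, 5 with no filter, 6 without the intensity trend and 6 with the mean over a gene's probe sets. With the lowest 60% left out it was 3, since only 6 of the 10 genes, and 7 probe sets, were then tested. The number of member probe sets that fell, 8 of 12, was 5 to 7 when 1 array was left out, and 3 with the lowest 60% left out. Over all probe sets, 2920 calls became 858 without the intensity trend and 1479 to 3927 when 1 array was left out; the cause was not tested. With the replicate number as a block, 2913 probe sets were called; of the members, 6 genes fell and 1 rose, and Slc3a1 was not called (adjusted p = 0.0583). Same-numbered arrays had deviations that correlated at -0.0171, and nothing in the labels pairs them.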
